A study of Rattus norvegicus with 21 samples.

Results

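The response of the anterior pituitary gland to diethylstilbestrol (DES), a synthetic estrogen, was compared between male rats of the ACI and Brown Norway (BN) inbred strains. The quantity followed here is the response difference, which is the log2 change with DES in ACI minus the log2 change with DES in BN. A gene was included when limma gave its response difference an adjusted p under 0.05, and this held for 1739 of the 11465 genes tested (15.2%). The response difference was positive for 809 of them (7.06% of genes tested) and negative for 930 (8.11%). In 70 genes (0.611% of genes tested) DES moved expression in opposite directions in the 2 strains, each change being called on its own.

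The study hybridized anterior pituitary RNA from ACI, Copenhagen (COP) and BN rats to 21 Affymetrix Rat Genome 230 2.0 arrays. The 14 arrays used here were from ACI and BN rats, with 3 control and 4 DES arrays per strain. Control males received an empty implant and treated males an implant with 5 mg DES at 9 weeks of age, and all were killed at 21 weeks, 12 weeks later. Every rat, control or treated, also received BrdU at 50 mg/kg 4 h before death, so BrdU was common to all groups. Each array gave 1 signal per probe set on a linear scale, and values below are those signals unless a log2 scale is named. The notes on the samples count 2 independent replicates among the 3 control rats of a strain and 3 among the 4 treated rats, whereas the series design calls every array a biological replicate. Each array was taken as 1 rat, and the p-values measure only the spread between arrays.

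The whole gland was profiled in bulk. Fewer cells of a type, a smaller share of that type beside more cells of other types, and less RNA per cell therefore cannot be told apart in any result below. Markers of the anterior lobe were bright on all 14 arrays, with Prl between 24379.6 and 68841 and Gh1 between 20518.5 and 61190.2. Of 8 genes on the array from a list of neural lobe and nerve markers, 2 passed the signal filter, Mbp and Gap43. Gap43 rose by 4.57 in ACI and 3.78 in BN on the log2 scale, and Mbp fell by log2 changes of -0.69 and -0.98. Avp and Oxt of that list did not pass the filter. How much neural lobe the samples held was not tested. Arrays numbered 1 and 2 in the labels tended to deviate together from their group means, and apart from those numbered 3 and 4. Over pairs of arrays from different groups, the median correlation of these deviations was 0.15 within such a set and -0.14 between sets. For the genes with the largest response differences and for the strongest opposite responders the difference is therefore also given for numbers 1 and 2 alone and for numbers 3 and 4 alone, where the latter had 1 control and 2 DES arrays per strain. Signals under 67.0, the lowest 40th percentile of any array, were near the floor, and changes from or to such signals are of uncertain size.

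Estrogens act on the pituitary mainly through estrogen receptor alpha, a nuclear receptor that is abundant in lactotrophs, the cells that make prolactin. Prolonged estrogen makes lactotrophs divide in rats, and the ACI strain is known as sensitive and the BN strain as resistant to pituitary growth under estrogen. Estrogen also feeds back on gonadotrophs, the cells that make the gonadotropins, and lowers the output of luteinizing hormone and follicle-stimulating hormone.

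DES changed 6259 of the 11465 genes in ACI (54.6%), where 22.5% rose and 32.1% fell, and 4312 in BN (37.6%), where 16% rose and 21.6% fell. Of these, 2769 in ACI and 1374 in BN moved at least 2-fold. Over all genes the ACI and BN changes had a Pearson correlation of 0.765, as a description across genes that are not independent and share arrays within each strain. Among the 1739 genes, the change was larger in ACI for 1525 (87.7%) and larger in BN for 214 (12.3%). The most common patterns were a change called in ACI and not in BN, in 813 genes (46.8%), and changes in the same direction that were larger in ACI, in 673 genes (38.7%). In those 673 genes the median size of the change was 1.95 in ACI and 0.86 in BN on the log2 scale. A change called in BN and not in ACI was found in 140 genes (8.05%), a same-direction change larger in BN in 33 genes (1.9%), and a change called in neither strain in 10. The opposite responders made up 4.03% of the 1739. A called change in one strain beside none in the other does not show by itself that the strains differ. Here the difference itself was what was tested.

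Differences between the 2 strains were called mostly after treatment. Of the 1739 genes, 1366 (78.6%) had a called ACI against BN difference with DES and none between controls, 126 had one only between controls, 130 had both and 117 had neither. Over all genes tested, ACI and BN controls differed in 700 (6.11%) and treated glands in 3949 (34.4%). The response difference was at least 2-fold in 908 of the 1739 genes, at least 4-fold in 176 and at least 8-fold in 27, and of these 27 the difference was positive in 14 and negative in 13. Over single probe sets, DES changed 48.8% in ACI and 32.2% in BN, and the response difference was called for 2569 of 21062 (12.2%), being positive for 1114 (5.29%) and negative for 1455 (6.91%). Over all probe sets the median response difference was -0.06 on the log2 scale. Centring each array on its median moved that value to 0.07 and the share of called probe sets with a positive response difference from 43.4% to 62.7%. With quantile normalization the share was 48%. Under both scalings every one of the 1739 genes kept the sign of its response difference. Of these genes 1413 (81.3%) were still called with median centring and 1507 (86.7%) with quantile normalization.

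**Figure D1:**
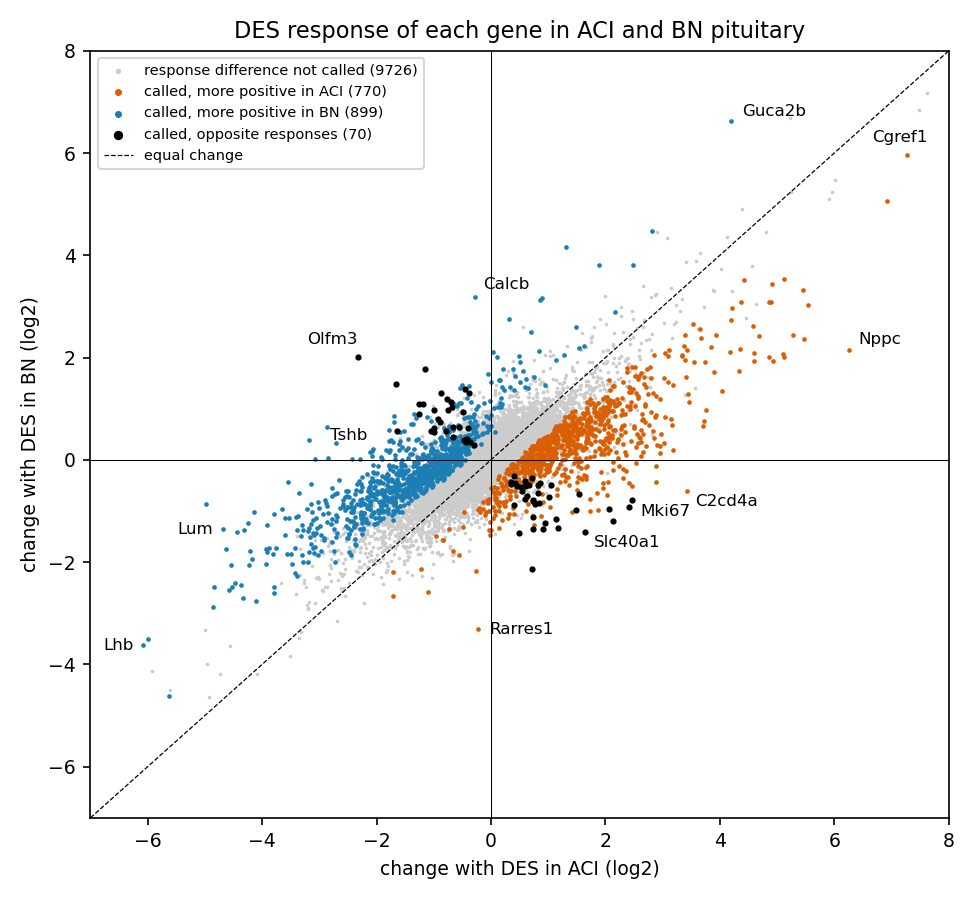
Log2 change with DES in BN (vertical) against that in ACI (horizontal) for each of the 11465 genes tested, with genes called for the response difference in orange (more positive in ACI), blue (more positive in BN) or black (the 70 opposite responders), and a dashed line of equal change. The change was larger in ACI for 1525 of the 1739 called genes, and the opposite responders lie to the upper left and lower right of the origin.

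Among called genes with a mean signal of at least 200 in some group, the most positive response difference was that of Nppc, which encodes C-type natriuretic peptide. Its signals were 95, 79.4 and 74.0 in ACI controls, 7205, 6756, 8277 and 8013 with DES in ACI, 119, 107 and 159.7 in BN controls and 719, 826, 407 and 612 with DES in BN. Control and DES arrays did not overlap in either strain, and every treated ACI gland lay above every treated BN gland. Nppc rose by 6.26 in ACI and 2.16 in BN on the log2 scale, a difference of 4.11 ± 0.28 (SE; 95% interval 3.51 to 4.70; adjusted p = 2.36e-06). Within numbers 1 and 2 and within numbers 3 and 4 the difference was 3.47 and 4.95. Hapln4, a link protein that binds hyaluronan in the extracellular matrix, also rose in both strains. It had 35.2 to 70.0 in ACI controls and 1957 to 2769.8 with DES in ACI, and 61.8 to 73.3 in BN controls and 242 to 406 with DES in BN. Its response difference was 3.11 ± 0.28 (adjusted p = 9.01e-06), or 2.85 and 3.57 within the number sets. Spink4, a member of a family of secreted serine protease inhibitors, had 1379.6, 2482, 1566 and 2942 with DES in ACI and 50.2, 84.1, 158 and 172 with DES in BN, whereas its controls were at 7.4 to 53.7 in ACI and 5.6 to 12.2 in BN, near the floor. The response difference of Spink4 was 3.11 ± 0.57 (adjusted p = 0.00244), or 3.95 and 1.89 within the number sets, and its call was lost when 1 instead of 16 was added before the logarithm.

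C2cd4a and C2cd4b, a pair of related genes that encode nuclear proteins with a C2 domain, were among the genes with the next most positive differences at this signal. C2cd4a had 110.4, 87.8 and 82.7 in ACI controls, 1324, 1008, 1170.4 and 1123 in treated ACI glands, 629.8, 355.5 and 921 in BN controls and 345, 398, 371 and 422 in treated BN glands. C2cd4b had 118, 164 and 192 in ACI controls, 929.7, 848, 1037 and 774 with DES in ACI, 568, 741 and 659 in BN controls and 296, 325, 330.2 and 402 with DES in BN. In ACI all treated glands were above all controls for both genes, and in BN treated glands were below controls for C2cd4b but overlapped them for C2cd4a. C2cd4a rose by 3.42 in ACI, its BN change of -0.61 was not called (adjusted p = 0.0504), and the response difference was 4.03 ± 0.32 (adjusted p = 3.92e-06). C2cd4b rose by 2.41 in ACI, its change in BN was -0.93 (adjusted p = 0.000558), and the difference was 3.33 ± 0.24 (adjusted p = 2.37e-06). Both differences had the same sign within the number sets, at 3.70 and 4.75 for C2cd4a and 3.57 and 2.96 for C2cd4b. The strains also differed without DES, the ACI minus BN difference of controls being -2.48 for C2cd4a and -1.97 for C2cd4b on the log2 scale. The first listed starts of the 2 genes lie 96.6 kb apart on chromosome 8 of the RefSeq assembly GRCr8, so they are neighbours as well as relatives.

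Dnase1l3, an endonuclease that degrades DNA released by cells, had 339, 559, 413.5 and 415 in treated ACI glands, against 37.0 to 55.2 in ACI controls, 53.0 to 95.3 in BN controls and 22.6 to 107 in treated BN glands. The treated ACI glands stood apart from the other 3 groups, which overlapped near the floor, and the response difference was 3.33 ± 0.46 (adjusted p = 0.000268), with 3.71 within numbers 3 and 4 and no test within numbers 1 and 2. For Rarres1, a gene named for its induction by retinoids, the positive difference came from the BN side. Its BN controls were at 2164, 2138 and 1609 and its treated BN glands at 157, 147, 215 and 224, with no overlap, while ACI controls (681 to 771) and treated ACI glands (500.2 to 731) overlapped. Rarres1 fell in BN by a log2 change of -3.31, its ACI change was -0.22 (adjusted p = 0.3), and the response difference was 3.09 ± 0.24 (adjusted p = 3.92e-06), or 3.41 and 2.57 within the number sets.

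Cell cycle genes had a positive response difference where called. Of 29 tested genes on a list of cell cycle genes, 14 (48.3%) had a called positive response difference and none a negative one, with a median difference of 1.42 against -0.06 over all genes. With DES, 22 of the 29 rose in ACI and none fell, and in BN 5 rose and 3 fell. The median change was 1.37 in ACI and 0.27 in BN. Among 18 tested genes of DNA replication, 5 (27.8%) were called positive and none negative, with a median difference of 0.61. The change with DES was larger in ACI for 12 of the 14 called cell cycle genes and for 2 of the 5 called replication genes, Mcm5 and Cdt1. It was larger in BN, as a fall, for Ccnd2 (-0.80), Aurkb (-1.38; -0.00 in ACI), Mcm2, Mcm6 and Tk1 (-0.71; 0.33 in ACI). The lists were written with earlier results of these data known, so their counts describe the genes and are no independent evidence of a direction.

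Mki67, which encodes the proliferation antigen Ki-67, had 124, 70.2 and 136 in ACI controls and 650.1, 599.5, 689 and 712 with DES in ACI. In BN it had 241.5, 119 and 278 in controls and 143, 149.8, 88.0 and 73.8 with DES. In ACI every treated gland exceeded every control, whereas in BN the ranges overlapped and the 2 lowest values were from treated glands. It rose by 2.47 in ACI and fell by a log2 change of -0.79 in BN (adjusted p = 0.0429), and the response difference was 3.26 ± 0.40 (adjusted p = 0.000107), or 2.74 and 3.84 within numbers 1 and 2 and within numbers 3 and 4. Cdk1, the kinase that drives entry into mitosis, went from between 62.8 and 129.9 to between 498.5 and 654 in ACI, while in BN controls were at 113 to 165 and treated glands at 127 to 169. Its response difference was 2.27 ± 0.30 (adjusted p = 0.000203). The B-type cyclins that activate this kinase followed it, with differences of 1.91 ± 0.23 for Ccnb1 and 2.03 ± 0.25 for Ccnb2. Ccnb1 had 429, 429, 438 and 442 in treated ACI glands, a narrow range that lay above all of its ACI controls (118 to 145), whereas treated and control BN glands overlapped between 138 to 167 in controls and 96.4 to 149 with DES. The S-phase and mitotic genes Top2a (1.69), Ccna2 (2.25), Prc1 (2.09), Kif20a (2.69) and Ttk (3.05) were also called. Pttg1, the securin that holds sister chromatids together, rose by 1.96 in ACI, its BN change of -0.45 was not called (adjusted p = 0.235), and the difference was 2.42 ± 0.40 (adjusted p = 0.00105).

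Replication genes had a smaller median difference, and some changed in BN. Mcm6, a subunit of the replicative helicase, rose in ACI from between 389.9 and 471 to between 669 and 750.4 and fell in BN from between 537 and 575 to between 150.2 and 395, for a response difference of 1.85 ± 0.35 (adjusted p = 0.00282). Mcm6 and Mki67 were the only genes of the cell cycle and replication lists that were opposite responders. Mcm2, another subunit, did not change by the test in ACI (-0.13; adjusted p = 0.379) but fell in BN by a log2 change of -0.96. Cdt1, which loads the helicase, had a difference of 1.64 ± 0.36 and Tk1, the thymidine salvage kinase, one of 1.04 ± 0.29 whose call was lost in 7 of 26 alternative analyses. The D-type and E-type cyclins were mostly not called. Ccnd2, which drives the step from G1 to S phase, was the exception at 1.06, and there the change was in BN (-0.80). Of 12 tested inhibitors of the cell cycle 1 was called (8.33%, against 15.2% of all genes tested), the stress-induced Gadd45a. It fell in both strains and more in BN (-0.85 in ACI, -1.56 in BN). Its call was lost in 6 of 26 alternative analyses. Of 12 tested apoptosis genes none was called, against 15.2% of all genes tested, a share that predicts few calls in so short a list.

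**Figure D2:**
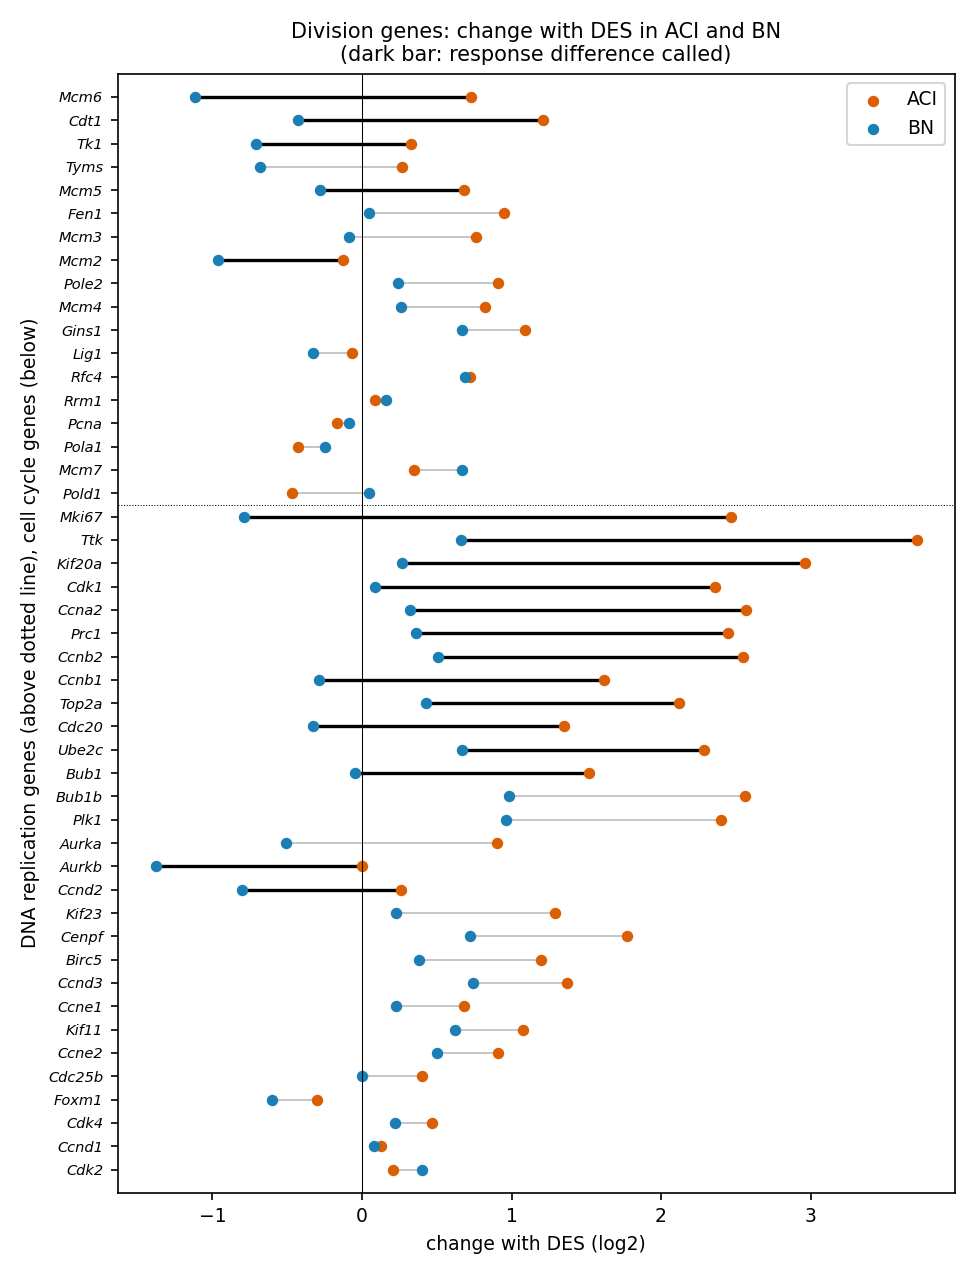
Log2 change with DES in ACI (orange) and BN (blue) for each tested gene of the cell cycle list (below the dotted line) and the DNA replication list (above it), joined by a dark bar where the response difference was called. For the 14 called cell cycle genes the orange point lies to the right of the blue one, and most blue points lie near 0.

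Promoters are shown for 3 of the called division genes because their expression moved together, with the proximal sequence from 250 bases before to 30 bases after the first listed RefSeq start (GRCr8). Capitals mark CCAAT, the letters bound by the factor NF-Y, and TTTGAA, the core of the cell cycle homology region through which many mitotic genes are repressed in resting cells. Either strand was searched, so CCAAT can read ATTGG. Ccnb2 is at chr8:79981629-79981908 (minus strand), Cdk1 at chr20:19265043-19265322 (plus strand) and Mki67 at chr1:199952564-199952843 (minus strand).
Ccnb2: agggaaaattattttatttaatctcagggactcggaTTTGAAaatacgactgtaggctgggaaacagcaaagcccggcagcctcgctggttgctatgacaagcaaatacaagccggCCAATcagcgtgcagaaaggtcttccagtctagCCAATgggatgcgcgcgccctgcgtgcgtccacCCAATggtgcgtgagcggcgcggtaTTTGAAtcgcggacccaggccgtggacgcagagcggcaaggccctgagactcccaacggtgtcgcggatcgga
Cdk1: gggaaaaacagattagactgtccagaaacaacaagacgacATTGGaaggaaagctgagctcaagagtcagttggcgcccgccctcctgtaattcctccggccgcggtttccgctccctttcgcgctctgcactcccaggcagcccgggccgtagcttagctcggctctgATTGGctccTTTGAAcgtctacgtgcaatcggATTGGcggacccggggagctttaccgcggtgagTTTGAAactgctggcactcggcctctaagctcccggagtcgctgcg
Mki67: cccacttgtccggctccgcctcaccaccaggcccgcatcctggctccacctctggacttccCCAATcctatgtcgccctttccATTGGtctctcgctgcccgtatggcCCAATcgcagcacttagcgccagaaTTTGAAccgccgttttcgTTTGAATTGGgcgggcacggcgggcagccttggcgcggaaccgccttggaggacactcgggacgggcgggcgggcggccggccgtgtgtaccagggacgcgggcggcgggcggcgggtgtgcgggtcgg
These windows hold 3, 3 and 4 CCAAT matches, and each holds 2 TTTGAA matches. In Mki67 a CCAAT match and a TTTGAA match overlap by 1 base. Of the 10 called cell cycle genes with a promoter in the table, CCAAT was present in 9 (90%) and TTTGAA in 7 (70%). Over all 27457 promoters of the same length these shares were 36.5% and 17.2%, and over the 9559 promoters of genes tested they were 36.8% and 10.7%. Among the 22 tested cell cycle genes with a promoter, called or not, they were 77.3% and 54.5%. The matches describe the letters in these windows and say nothing of what bound there.

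At the same minimum signal of 200, the most negative response difference belonged to Olfm3, an olfactomedin-domain secreted glycoprotein of neural tissue. Its signals were 2856, 2869.8 and 4402 in ACI controls, 645, 607, 597 and 759 with DES in ACI, 697, 707 and 948.5 in BN controls and 2049, 2207, 5864 and 3893.5 with DES in BN. DES thus lowered it in every treated ACI gland and raised it in every treated BN gland relative to all controls of the strain, with changes of -2.32 and 2.02 on the log2 scale. The response difference was -4.34 ± 0.40 (95% interval -5.18 to -3.49; adjusted p = 1.03e-05), or -3.74 and -4.99 within numbers 1 and 2 and within numbers 3 and 4. ACI controls were higher than BN controls by 2.07, so the order of the strains was turned by treatment.

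Defb24, a member of the beta-defensin family, had 1059, 1331 and 689.9 in ACI controls and 123, 94.3, 65.2 and 104 with DES in ACI, against 402 to 1027.5 in BN controls and 637 to 994 with DES in BN. It fell in ACI by a log2 change of -3.19, its BN change of 0.40 was not called (adjusted p = 0.31), and the difference was -3.58 ± 0.40 (adjusted p = 5.06e-05), or -3.46 and -3.54 within the number sets. The uncharacterized gene 6330403K07Rikl went from between 1995.5 and 2559.8 to between 14.7 and 132 in ACI and had 1052, 1212, 2172 and 1535 with DES in BN. Its response difference was -4.12 ± 0.53 (adjusted p = 0.000145), larger within numbers 3 and 4 (-5.62) than within numbers 1 and 2 (-2.82). Scn7a, an atypical sodium channel that senses sodium, had 111, 64.1, 107.5 and 76.8 in treated ACI glands against 1629.7 to 2200.1 in their controls, and 694, 788, 1146 and 815 in treated BN glands against 1612 to 1945.5. The groups did not overlap in either strain, and the response difference was -3.13 ± 0.27 (adjusted p = 6.67e-06), or -2.81 and -3.64 within the number sets.

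Matrix genes moved in both directions. Lum and Dcn encode lumican and decorin, small proteoglycans that coat collagen fibrils, and both fell further in ACI. Lum had 152, 69.0, 74.7 and 34.1 in treated ACI glands against 1640.2 to 2719 in controls, whereas BN had 152, 247, 1039 and 460.5 with DES against 775 to 1349, where array 3 overlapped the controls. The response difference was -3.34 ± 0.69 (adjusted p = 0.00501) for Lum, or -2.17 and -4.40 within the number sets, and -3.02 ± 0.49 (adjusted p = 0.000985) for Dcn. Col1a2, a chain of type I collagen, and Lox, the enzyme that cross-links collagen, went the other way. Col1a2 rose in ACI from between 369 and 716 to between 1585 and 1946 and lay at 526 to 729 and 352 to 586 in BN, a difference of 2.04 ± 0.30. Col1a1, another chain of type I collagen, did not follow it. Its changes of -0.47 in ACI and -0.53 in BN and its difference of 0.06 (adjusted p = 0.939) were not called. Lox rose in ACI from between 72.5 and 122 to between 392 and 542, while BN controls were already at 219 to 373 and treated BN glands at 240.3 to 379, a difference of 2.36 ± 0.31. Of 14 tested fibroblast and matrix genes 2 were called positive and 3 negative, with a median of 0.27. Timp3, an inhibitor of matrix proteases and the remaining called member, had -0.83 by its brightest probe set. Its other tested probe sets gave -0.88, which was called, and -0.48 and 1.24, which were not.

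The 70 opposite responders comprised 39 genes that rose in ACI and fell in BN (0.34% of genes tested) and 31 that fell in ACI and rose in BN (0.27%). The count dropped to 39 without BN control array 1 and to 42 without BN control array 3, and ranged from 39 to 88 over the 14 analyses that left out 1 array. It was 128 with the number set as a block, 123 with numbers 1 and 2 alone and 219 with numbers 3 and 4 alone. The genes with the strongest changes on both sides, at a mean signal of at least 200 in some group, are described first, in 6 genes of each orientation.

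Among genes that rose in ACI and fell in BN, Slc40a1 encodes ferroportin, which exports iron from cells. It had 298, 303 and 395 in ACI controls, 708, 817, 1366 and 1607 with DES in ACI, 543.5, 533 and 516 in BN controls and 179.8, 151, 248 and 195 with DES in BN. No groups overlapped, BN controls lay between ACI controls and treated ACI glands, and treated BN glands were lowest. The changes were 1.64 in ACI and -1.40 in BN, the response difference was 3.05 ± 0.34 (adjusted p = 5.03e-05), or 2.91 and 3.04 within the number sets, and 2 other probe sets of the gene gave 2.88 and 3.20, both called. Ackr3, a receptor that binds and removes the chemokine CXCL12, had 1702, 1776, 2054 and 2249 with DES in ACI and 370.2, 434.5, 549.6 and 433 with DES in BN, against 911 to 1148 in ACI controls and 788 to 1397 in BN controls. Treated ACI glands were above and treated BN glands below all controls, for a difference of 2.19 ± 0.25 (adjusted p = 6.58e-05), or 2.08 and 2.38 within the number sets. Cxcl12 itself, which is on the lists of folliculostellate and estrogen-responsive genes, was an opposite responder of the other orientation. It had 1401, 1376 and 1225 in ACI controls, 410.3, 692, 731 and 422 with DES in ACI, 1716, 1416 and 1751 in BN controls and 3246, 3191, 2876 and 2910.2 with DES in BN, for a response difference of -2.17 ± 0.25 (adjusted p = 6.66e-05).

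Apobec1, the cytidine deaminase that edits apolipoprotein B RNA, was dim, with 87.9, 39.4 and 99.2 in ACI controls, 222, 190.4, 214 and 296 with DES in ACI, 72.7, 57.6 and 70.0 in BN controls and 5.9, 35.2, 55.6 and 21.5 with DES in BN. Treated ACI glands stood above both control groups, and treated BN glands lay below BN controls but overlapped ACI controls, with treated BN values near the floor, and the difference was 2.47 ± 0.51 (adjusted p = 0.00506), or 2.82 and 1.95 within the number sets. Its call was lost with numbers 3 and 4 alone, where the difference was 1.95. Irf7 and Mx1 of the interferon response are described with their list below, and C2cd4b above.

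Among genes that fell in ACI and rose in BN, Vcan encodes versican, a large proteoglycan of loose matrix. It had 249.6, 214 and 168 in ACI controls, 61.4, 78.2, 76.7 and 21.4 with DES in ACI, 121.5, 93.5 and 124 in BN controls and 356, 459.7, 325 and 264 with DES in BN. The groups did not overlap in either strain, the difference was -3.15 ± 0.41 (adjusted p = 0.000165), or -3.31 and -2.79 within the number sets, and 2 other tested probe sets gave -2.22 and -3.33, both called. Calb1, the calcium buffer calbindin, had 210.5 to 374 in ACI controls, 103, 107, 134 and 111 in treated ACI glands, 77.1 to 130.0 in BN controls and 349, 355, 458 and 296.5 in treated BN glands. Treatment brought ACI down to about the level of BN controls and BN up to about that of ACI controls, and the difference was -2.94 ± 0.31 (adjusted p = 4.04e-05), or -3.39 and -2.11 within the number sets.

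Sostdc1, a secreted antagonist of BMP and Wnt signals, had 3513, 3539.7 and 2411 in ACI controls, 1632, 1351, 974 and 1294 with DES in ACI, 291.5, 172 and 241 in BN controls and 663, 529, 418 and 452 with DES in BN. It fell in ACI and rose in BN without overlap but stayed higher in ACI throughout, and the response difference was -2.35 ± 0.30 (adjusted p = 0.000131), or -2.58 and -1.90 within the number sets. Cyp26b1, which breaks down retinoic acid, had 69.0, 41.7, 53.4 and 53.7 with DES in ACI against 91.6 to 154, and 221, 245, 173 and 175 with DES in BN against 55.5 to 127.5. Its response difference was -1.97 ± 0.38 (adjusted p = 0.00318), or -2.21 within numbers 1 and 2, with the call lost with numbers 3 and 4 alone at -1.69. Kcnab1, a beta subunit of voltage-gated potassium channels, had 37.4, 60.9, 25.3 and 56.3 with DES in ACI and 177.5, 168, 356 and 330.2 with DES in BN, for a difference of -2.28 ± 0.45 (adjusted p = 0.00349), or -2.03 and -2.21 within the number sets. A second probe set of Kcnab1 gave -1.76 and was not called (adjusted p = 0.225).

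**Figure D3:**
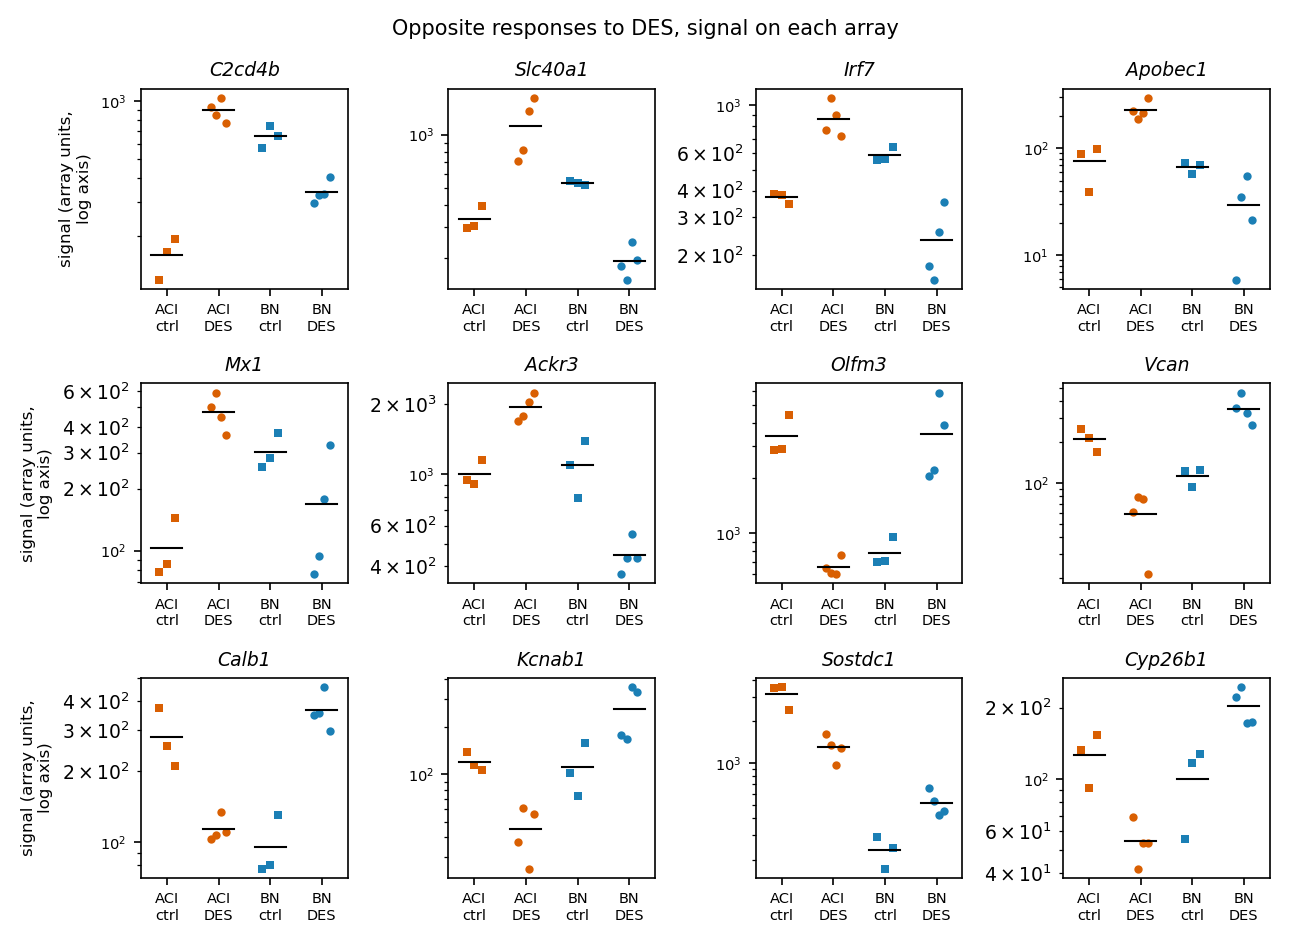
Signal on each array (log axis, array units) of the 12 opposite responders described, in ACI controls, ACI with DES, BN controls and BN with DES, with a bar at each group mean. In the first 6 panels treated ACI glands lie above and treated BN glands below their controls on average, and in the last 6 the order is turned.

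The other opposite responders were looked at after their values were seen and are named here to account for all 70. Those that rose in ACI and fell in BN included Psat1, an enzyme of serine synthesis, which had 1152, 995.5 and 788 in ACI controls, 1964, 1749, 1790.0 and 1863 with DES in ACI, 1966, 1595.5 and 2099.7 in BN controls and 877, 782, 586 and 688 with DES in BN (difference 2.27). C1qtnf1, a secreted protein related to complement C1q, went from between 346 and 482 to between 559.9 and 731.5 in ACI and from between 482 and 629.5 to between 69.4 and 143 in BN (difference 2.84). Tnfrsf11b, which encodes the decoy receptor osteoprotegerin, had the most positive difference of this orientation (3.34) at low signal. Pltp, which transfers phospholipids between lipoproteins, and Lrp8, a lipoprotein receptor of the reelin pathway, differed by 1.75 and 1.27. Gbp2, an interferon-induced GTPase, and Ptpn6, a tyrosine phosphatase of blood cells, differed by 1.69 and 0.83. The ectonucleotidase Entpd3 and the photoreceptor cadherin Cdhr1 differed by 2.20 and 2.09, the zinc transporter Slc39a10 by 1.34, and the calcium channel subunit Cacnb3 by 1.17. The other genes of this orientation, besides Mki67 and Mcm6, were Tox, Ngef, Arrdc2, Fbxo2, Stambpl1, Sorcs1, Cobll1, Net1, Tmem117, Zfp521, Rnf144b, Rhpn2, Aldh7a1, Atp11a, Tmem254, Tagln2, Apbb1ip, Myo5a, Map2k3 and Dap3.

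Genes that fell in ACI and rose in BN included Kdr, the main endothelial receptor of VEGF-A. It had 1559.5, 1502 and 2304 in ACI controls, 1201, 1215, 1265 and 1318 with DES in ACI, 1517, 1086.5 and 1115 in BN controls and 2236.5, 2318.5, 2488 and 2362 with DES in BN, without overlap in either strain (difference -1.42; adjusted p = 0.000413). The transcription factor Neurod1 had 405 to 557 and 178 to 425 in ACI controls and treated ACI glands, and rose from between 275 and 482 to between 706 and 801 in BN (difference -1.71). Crem, a transcription factor of the cAMP pathway, and Per1, a core gene of the circadian clock, differed by -1.82 and -1.62. In Crem, ACI controls were at 6318 to 8062 and BN controls at 1499 to 2435, and treated glands overlapped between strains. The heparin-binding growth factor Ptn differed by -1.63, the interleukin receptor Il1r1 by -1.36, the folate hydrolase Ggh by -2.18 and the DNA repair enzyme Mgmt by -1.31. The other genes of this orientation were Arpp21, Pof1b, Prr15, Kcnv1, Gca, Dscam, Neto2, Tp53rkb, Fam167b, Bag2, Cdkn2aipnl, LOC100912167, Ell2, Ap1s2, Pggt1b and Isoc1.

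Interferon-induced genes were positive where called. Of 19 tested, 5 (26.3%) had a positive response difference and none a negative one, and 3 of these were opposite responders. In BN 10 of the 19 fell and 2 rose, and in ACI 7 rose and 5 fell. The median difference was 0.65. Irf7, a transcription factor that amplifies interferon production, had 388, 382 and 348 in ACI controls, 767, 1082.5, 899 and 720.2 with DES in ACI, 557.5, 562 and 641 in BN controls and 178, 154, 257.5 and 356 with DES in BN. Treated ACI glands were above and treated BN glands below the controls of their own strain without overlap, the treated BN glands overlapping only ACI controls, and the response difference was 2.49 ± 0.31 (adjusted p = 0.000118), or 2.88 and 2.22 within the number sets. Mx1, an antiviral GTPase, had 78.2, 86.0 and 144 in ACI controls, 498, 588, 447 and 367 with DES in ACI, 254, 282 and 372 in BN controls and 76.7, 93.8, 178 and 327 with DES in BN. In BN, array 4 overlapped the controls, and Mx1 differed by 3.04 ± 0.50 (adjusted p = 0.00104), more within numbers 1 and 2 than within numbers 3 and 4 (4.00 and 1.99). Gbp2, Ifit3 (1.68) and Isg20 (0.65) were the other called members. The interferon-stimulated response element contains repeats of GAAA, and the promoter of Irf7, shown because its gene moved with the list, has 1 match of GAAA, any 2 bases and GAAA, in capitals as it reads on the opposite strand (chr1:205799994-205800273, minus strand, GRCr8, RefSeq).
Irf7: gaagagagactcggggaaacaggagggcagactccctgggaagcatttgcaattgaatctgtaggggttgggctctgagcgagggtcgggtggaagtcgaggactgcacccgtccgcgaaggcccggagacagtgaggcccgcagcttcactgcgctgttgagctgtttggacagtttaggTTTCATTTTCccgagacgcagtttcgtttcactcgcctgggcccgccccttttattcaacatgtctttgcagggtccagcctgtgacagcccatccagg
The motif, searched on both strands, was in 4 of the 5 promoters of called interferon genes (80%), in 8 of 14 of those tested (57.1%) and in 3.63% of all promoters, and Mx1 was the called gene with no match in its window. Of 14 tested genes of antigen presentation 3 were called positive, the peptide-loading protein Tapbp (1.03), the class II chaperone RT1-DMa (0.88) and the class I gene RT1-CE5 (0.79). The class I-like gene RT1-M3-1 was called negative (-2.07). Genes of the RT1 complex differ in sequence between strains and share similar copies, so probe signals of these genes are uncertain.

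Markers of leukocytes and macrophages moved with these results. Of 15 tested, 8 (53.3%) had a positive response difference and none a negative one, with a median of 1.23. In ACI 12 rose and none fell, and in BN 5 rose and 1 fell. The summed signal of the list was 8797 to 10726 in ACI controls and 21510 to 25554 with DES in ACI, and 11817 to 14643 in BN controls and 12535 to 22922 with DES in BN. The lysosomal glycoprotein Cd68 of macrophages had 120.5, 114 and 123 in ACI controls and 500.1, 678.5, 478 and 522 with DES in ACI, and 132, 130.0 and 171 in BN controls and 240.2, 188, 196 and 178 with DES in BN. C1qc, a chain of complement C1q, rose in both strains. It had 291 to 480.0 in ACI controls, 2098 to 2719 with DES in ACI, 559 to 629 in BN controls and 835 to 1378 with DES in BN. Ptprc, the pan-leukocyte antigen CD45, rose from between 125 and 132 to between 395 and 474 in ACI, and BN controls (203 to 307.5) overlapped treated BN glands (186 to 378). The response differences were 1.6 ± 0.24 for Cd68, 1.74 ± 0.26 for C1qc and 1.62 ± 0.29 for Ptprc (adjusted p = 0.000455, 0.000408 and 0.00215). Ptprc and C1qc were lower in ACI than in BN controls, by a log2 difference of -0.86 and -0.69. The part of these cells in the interferon, matrix and division results was not tested. Of 4 tested red blood cell markers none was called, against 15.2% of all genes tested, and so few genes show little.

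The beta subunit genes of the gonadotropins fell in both strains and further in ACI, and that of thyroid-stimulating hormone fell by the test in ACI alone. Tshb, the beta subunit of thyroid-stimulating hormone, had 22230.5, 27939.8 and 34516 in ACI controls and 7098, 6761, 5673 and 6225 with DES in ACI, and 25791, 27052 and 26729 in BN controls and 26141.5, 22796, 41134 and 30434 with DES in BN. It fell in ACI by a log2 change of -2.11 without overlap, whereas the BN groups overlapped and the change of 0.15 was not called (adjusted p = 0.557). The response difference was -2.26 ± 0.25 (adjusted p = 4.94e-05), or -1.73 and -2.94 within the number sets. Lhb, the beta subunit of luteinizing hormone, fell from between 14696 and 19292 to between 211 and 263 in ACI and from between 12337 and 16832 to between 921 and 1329 in BN. All treated glands were far below all controls, and the ACI glands below the BN glands, for changes of -6.08 and -3.61 and a difference of -2.47 ± 0.20 (adjusted p = 5.85e-06). Fshb, the beta subunit of follicle-stimulating hormone, fell to between 183 and 217 in ACI and to between 343 and 434 in BN, from controls of 8830.2 to 11940.1 and 8552 to 11520.4, a difference of -1.01 ± 0.19 (adjusted p = 0.00258). Gnrhr, the receptor through which the hypothalamus drives gonadotrophs, was higher in ACI than in BN controls, 2625, 2981 and 2574 against 527, 493 and 355, and lay at 197 to 282 and 111 to 259.8 with DES, so that its difference of -2.01 ± 0.34 (adjusted p = 0.00143) came with strains that were apart before treatment and overlapped after it. Of 10 tested gonadotroph markers 6 were called (60%, against 15.2% of all genes tested), all negative, with a median of -1.29. Of 6 thyrotroph markers 3 were called (50%), Tshb, Gata2 and Trhr, all negative, with a median of -1.13. Trhr did not change by the test in ACI (0.23; adjusted p = 0.303) and rose in BN (1.36). Its other tested probe sets gave -0.62 and -0.63 and were not called.

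Prl, which encodes prolactin, was not called for the response difference. It had 24379.6, 32915 and 39379 in ACI controls and 35544, 41726.5, 44555.5 and 46054 with DES in ACI, and 27024, 26121 and 29679 in BN controls and 35967, 36523, 68841 and 53747.5 with DES in BN. The groups overlapped in ACI and not in BN, and the difference of -0.37 had a 95% interval of -0.99 to 0.26 (adjusted p = 0.471), with -0.01 and -0.83 within the number sets. Gh1, which encodes growth hormone, and Cga, the alpha subunit shared by the glycoprotein hormones, were likewise not called, at -0.92 (-1.57 to -0.28; adjusted p = 0.0595) and -0.75 (-1.36 to -0.13; adjusted p = 0.109). These 3 genes were brightest on BN DES arrays 3 and 4. Whether signals this bright still scale with the amount of RNA was not tested. The calls depended on the analysis. Of 26 alternatives, 8 called Gh1, 5 called Cga and 1, numbers 3 and 4 alone, called Prl (-0.83), each time with a negative difference. Gh1 ranged from -1.62 to -0.66 in those 8 and Cga from -1.45 to -0.47 in those 5, and for both they included the number set block, the replicate block, quantile normalization, numbers 3 and 4 alone and the analysis without ACI control array 1. For Gh1 they also included all 21 arrays and the analyses without BN DES array 1 and without BN DES array 2. The 9 spike-in control probe sets, whose RNA does not come from the gland, all had higher signals with DES, by 0.20 to 0.60 in ACI and 0.44 to 0.87 in BN on the log2 scale. Their response differences ran from -0.40 to 0.16, and 8 of the 9 were negative. The difference of Prl lies within that range. Pomc, the precursor of corticotropin, had a difference of -0.65 (-1.93 to 0.63) that was not called (adjusted p = 0.544). Of 10 tested lactotroph markers, which include Prl, Vip was called positive and Cartpt and Angpt1 negative (30%). Of 8 somatotroph markers the imprinted growth regulator Dlk1 alone was called (-1.52), 12.5% against 15.2% of all genes tested.

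Transcription factors of the pituitary lineages fell together in ACI. Of 10 tested, all fell in ACI, and 6 fell and 1 rose in BN. A negative response difference was called for 7 (70%) and a positive one for none, with a median of -1.34. Isl1, a LIM homeodomain factor of gonadotrophs and thyrotrophs, fell in ACI from 595, 504.5 and 484.5 in controls to 38.4, 10.6, 74.8 and 42.7 with DES, near the floor, while BN had 499, 420.1 and 406 and 340.4, 223, 247 and 297. The difference was -2.71 ± 0.42 (adjusted p = 0.000635). Tbx19, the T-box factor that turns on Pomc, fell in ACI from between 896 and 929 to between 76.2 and 144 and in BN from between 728.5 and 764 to values of 519.7, 336, 358 and 352, array 1 being the highest of the treated BN glands, and the difference was -2.08 ± 0.26 (adjusted p = 0.000132). Nr5a1, the steroidogenic factor of gonadotrophs, fell in ACI from between 350.1 and 442 to between 97.4 and 158, and its BN groups overlapped at 282 to 498 and 298 to 390.3 (difference -1.41 ± 0.28). Gata2, a zinc finger factor of gonadotrophs and thyrotrophs, fell in both strains with a difference of -1.73 ± 0.46 (adjusted p = 0.0209), and Pitx1 differed by -0.86. Sox2, a factor of pituitary stem cells, differed by -1.26 (adjusted p = 0.0238). Its other tested probe sets gave -2.01, which was called, and 0.90, which was not. Pou1f1, the factor shared by lactotrophs, somatotrophs and thyrotrophs, fell in both strains (-0.74 and -0.59), with a difference of -0.15 (95% interval -0.43 to 0.12).

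Peptide ligands showed both signs. Of 15 tested, 2 were called positive and 6 negative, with a median of -0.90. Besides Nppc, the positive member was Vip, which encodes vasoactive intestinal peptide, a releasing factor for prolactin. Vip had 2296, 1055, 1404 and 1979 in treated ACI glands against 42.1 to 110.1 in controls, and 444, 384, 516 and 598 against 87.0 to 101 in BN, a difference of 2.18 ± 0.38 (adjusted p = 0.00179). Guca2b, the guanylate cyclase activator uroguanylin, was the reverse of Nppc in that BN rose further, with 879, 1601, 591 and 859 in treated ACI glands and 7113, 6184, 6649 and 7517 in treated BN glands against controls of 30.3 to 41.0 and 45.1 to 65.2, near the floor. Every treated BN gland exceeded every treated ACI gland, and the difference was -2.44 ± 0.33 (adjusted p = 0.000218).

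Calcb, which encodes a form of calcitonin gene-related peptide, rose in BN alone by the test. Its BN controls had 46.7, 75.8 and 34.6 and treated BN glands 469, 629, 484 and 829, whereas ACI controls (153 to 215) and treated ACI glands (106 to 255.5) overlapped. The response difference was -3.47 ± 0.40 (adjusted p = 6.08e-05), or -2.82 and -4.39 within the number sets. Cartpt, the precursor of the CART peptide, fell in ACI from 4360.4, 2006 and 2589.5 to 706, 377, 554 and 124 and was low in BN, at 157, 135 and 242 in controls and 239.6, 302, 374 and 222 with DES. ACI controls exceeded BN controls by a log2 difference of 3.91, the treated groups overlapped, and the response difference was -3.52 ± 0.60 (adjusted p = 0.00134), or -3.30 and -3.44 within the number sets. Tac1, the precursor of substance P, fell in ACI from 275, 147 and 156 to 24.7, 26.5, 57.8 and 76.0 and had 160.0, 244 and 124 and 278, 314, 279.9 and 193 in BN, where the groups overlapped (difference -2.37 ± 0.45; adjusted p = 0.00296). Npy (-2.15) and Nmu (-1.04), precursors of neuropeptide Y and neuromedin U, were the remaining called members.

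**Figure D4:**
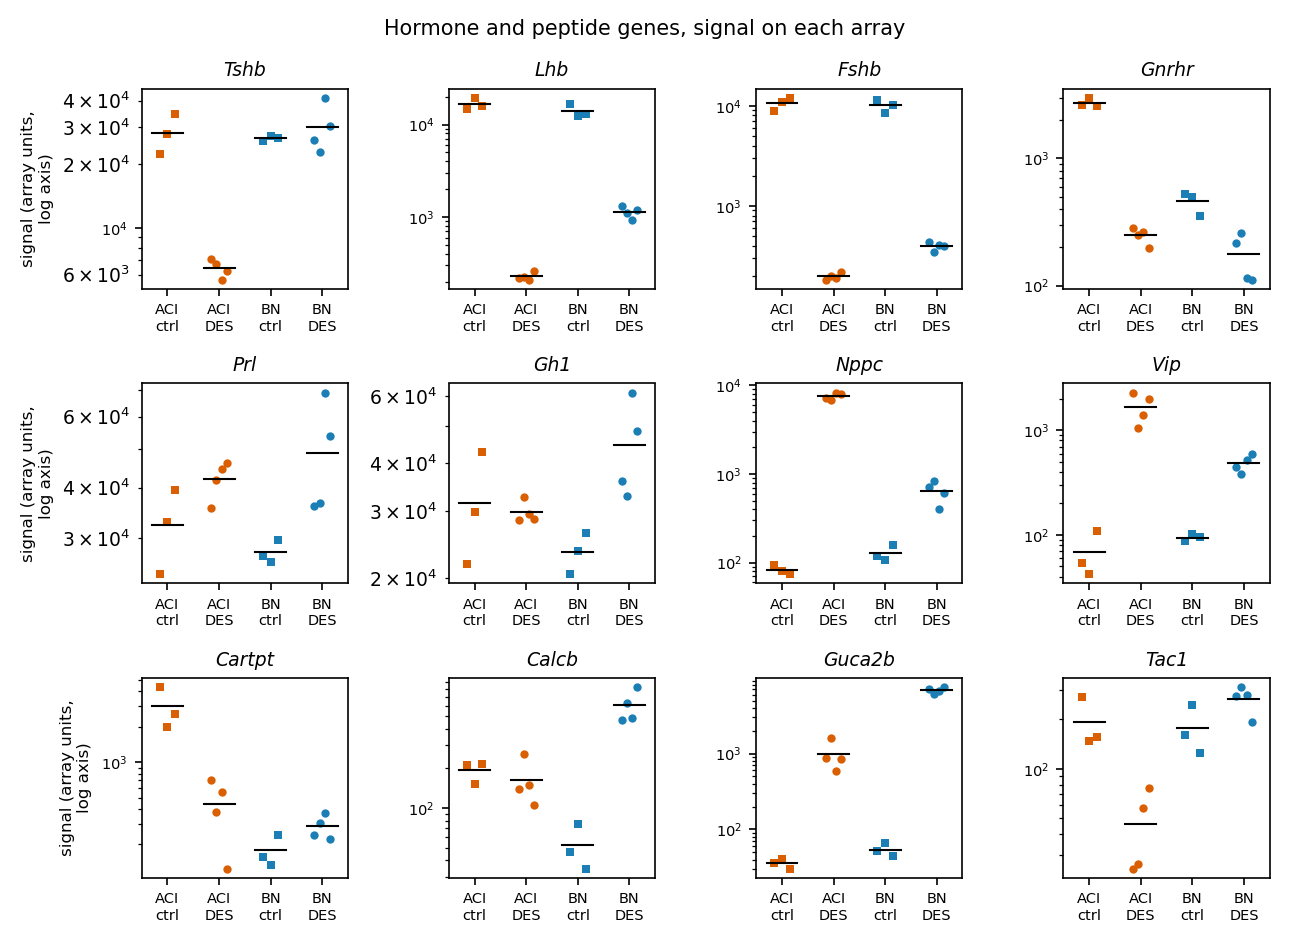
Signal on each array (log axis, array units) of hormone, receptor and peptide genes in ACI controls, ACI with DES, BN controls and BN with DES, with a bar at each group mean. Treated ACI glands lie lowest for Tshb, Lhb, Fshb and Tac1 and highest for Nppc and Vip, and treated BN glands lie highest for Calcb and Guca2b.

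Genes known to respond to estrogen had response differences of both signs. Of 17 tested, 3 were called positive and 3 negative, with a median of 0.17. Several large rises were found in both strains. Gal, the neuropeptide galanin, rose by 7.47 in ACI and 6.84 in BN, and Greb1, a cofactor of the estrogen receptor, by 5.91 and 5.11, and neither response difference was called (0.64, 95% interval 0.19 to 1.08, and 0.80, -0.20 to 1.80). Pgr, the progesterone receptor, rose by 2.66 and 2.61 (difference 0.06, -0.75 to 0.86). Cgref1, a calcium-binding growth regulator, reached 12908 to 13555 in ACI and 4435 to 6303 in BN from controls of 68.4 to 73.8 and 52.8 to 95.8, a difference of 1.30 ± 0.21 (adjusted p = 0.00107). Stc2, the secreted glycoprotein stanniocalcin 2, reached 835, 709, 734 and 657 in ACI and 307.5, 244, 98.8 and 177 in BN from controls near the floor, a difference of 2.59 ± 0.46 (adjusted p = 0.00171). Nrip1, a corepressor of nuclear receptors, rose in BN from between 501 and 509 to between 1113 and 1779, while the ACI groups overlapped, for a difference of -1.10 ± 0.26 (adjusted p = 0.0102). Esr1, the estrogen receptor alpha, was near the floor on many arrays, with 22.6 to 115.5 in ACI controls, 15.6 to 103 with DES in ACI, 5.1 to 132 in BN controls and 25.2 to 92.1 with DES in BN. Its difference of -0.47 had an interval of -2.39 to 1.45 and was not called (adjusted p = 0.796). Of 12 tested steroid receptors and coregulators 3 were called, all negative: Nrip1, the glucocorticoid receptor Nr3c1 (-1.01; adjusted p = 0.000408) and the orphan receptor Esrrg (-0.83; a second probe set gave 0.08 and was not called).

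Myc and Pvt1 lie in the Ept7 interval, a locus of estrogen-induced pituitary growth named by the study. Myc, a transcription factor of cell growth, had 186, 185 and 115 in ACI controls and 816, 730.4, 636 and 575 with DES in ACI, and 78.6, 103 and 79.3 in BN controls and 774, 914, 501 and 451.5 with DES in BN. It rose in both strains without overlap, by 2.00 in ACI and 2.66 in BN, and the response difference of -0.66 was not called (95% interval -1.36 to 0.05; adjusted p = 0.228), with -1.04 and -0.12 within the number sets. It was called with numbers 1 and 2 alone and with the number set as a block, 2 of 26 alternatives. Pvt1, a non-coding RNA beside Myc, rose by 1.68 and 1.32, with a difference of 0.35 (95% interval -0.37 to 1.08; adjusted p = 0.565). A1bg, a further gene of the interval, did not pass the signal filter. Among 17 tested MYC targets and ribosome biogenesis genes 2 were called positive and 1 negative, 17.6% against 15.2% of all genes tested. The positive ones were Odc1 (0.98; adjusted p = 0.00027), the first enzyme of polyamine synthesis, and Cad (1.18), which starts pyrimidine synthesis, and the negative one was Ldha (-0.53), a lactate dehydrogenase that rose in both strains and more in BN.

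Of 18 tested genes of folding in the endoplasmic reticulum 7 (38.9%) were called positive and none negative, with a median of 0.57. In ACI 16 rose and 1 fell, and in BN 13 rose and 1 fell, and of the 7 called genes 6 rose in both strains and more in ACI, Herpud1 rising by the test in ACI only. The cochaperone Dnajc3 rose by 1.91 in ACI and 0.99 in BN, and Manf, a stress-induced resident protein, by 1.29 and 0.60. The response differences were 0.92 ± 0.17 and 0.69 ± 0.14, and Hspa5, the main chaperone, did not differ by the test (0.03, 95% interval -0.39 to 0.45). Of 16 tested exocytosis genes 4 were called negative and 2 positive. Rab3b, a small GTPase of secretory vesicles, fell by log2 changes of -4.22 in ACI and -2.05 in BN (difference -2.18 ± 0.24; adjusted p = 4.94e-05), and Cadps, which primes vesicles, differed by -1.22. The t-SNARE Snap25 differed by -0.71 and Cplx1, a clamp of fusion, by -1.01, while the related Rab3d rose in both strains and more in ACI (1.02) and Rab27b was also called positive (1.74). Pcsk1n, an inhibitor of prohormone convertase, fell further in ACI (-2.04; adjusted p = 0.000182).

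Among 21 tested ion channel genes 5 were called negative and 2 positive. The sodium channel Scn9a fell by log2 changes of -3.43 in ACI and -1.73 in BN (difference -1.71; adjusted p = 0.000313), and the potassium channel Kcnk2 by changes of -3.29 and -1.99 (difference -1.30). Kcnk1, a related potassium leak channel, rose in both strains and more in ACI (1.15). Endothelial markers were negative where called, 3 of 9 with a median of -0.68, and comprised Kdr, the angiopoietin receptor Tek (-1.32) and the sialomucin Emcn (-0.95). The calls of Tek and Emcn were lost in 5 and 15 of 26 alternative analyses. Of 9 tested folliculostellate and stem cell markers 4 were called, all negative, with a median of -1.12: Cxcl12, Sox2, the glial calcium-binding protein S100b (-1.12) and annexin Anxa1 (-1.21). Of 15 tested genes of cholesterol and fatty acid synthesis none was called, against 15.2% of all genes tested, and 11 of them fell in ACI and 14 in BN. Of 17 immediate early genes 1 was called (5.88%, against 15.2% of all genes tested), the orphan nuclear receptor Nr4a3 (-2.07; adjusted p = 0.00366).

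Among 23 tested genes of activin, TGF-beta and BMP signalling 3 were called positive and 4 negative. Fstl3, which binds and blocks activin, differed by 2.09, the growth factor Tgfb3 by 1.08 and the BMP antagonist Chrd by 1.32. Inhbb, a subunit shared by inhibin and activin, differed by -0.92, the BMP target Id3 by -0.87, and the ligands Bmp2 and Bmp7 by -1.38 and -1.02. The calls of Chrd and Bmp2 were lost in 13 and 10 of 26 alternative analyses. Of 14 tested angiogenesis genes 1 was called positive, Pttg1, and 3 negative, Kdr, the oxygen-regulated factor Hif1a (-0.76) and Angpt1 (-1.30), the ligand of Tek. The calls of Hif1a and Angpt1 were lost in 7 and 17 alternatives. Of 12 tested granin and prohormone processing genes, Chga, a granin of secretory granules, was called positive (0.48) beside the negative Pcsk1n. The share called was 16.7%, against 15.2% of all genes tested, and the call of Chga was lost in 15 alternatives. Of 18 tested glycolysis genes, the enolase Eno2 was called positive (0.58) and Ldha negative, 11.1% against 15.2% of all genes tested.

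**Figure D5:**
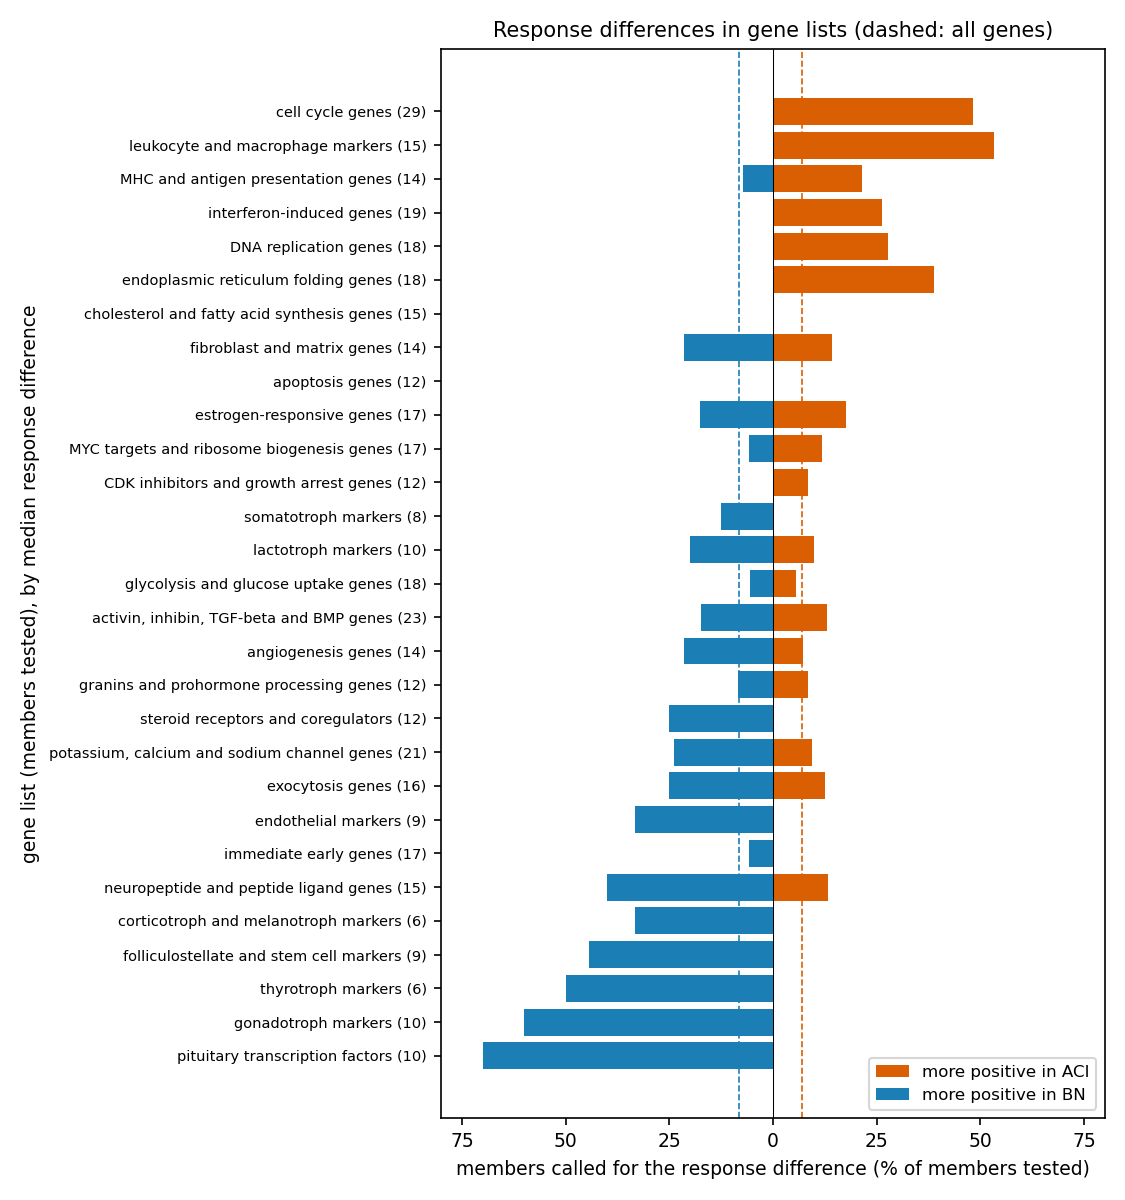
Percentage of tested members of each gene list called for the response difference, to the right where more positive in ACI (orange) and to the left where more positive in BN (blue), with dashed lines at the shares of all genes (7.06% and 8.11%). Lists with at least 6 tested members are ordered by their median response difference, from the cell cycle genes at the top to the pituitary transcription factors at the bottom.

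Lists with calls described above without a share had 25% (steroid receptors and coregulators) to 53.3% (peptide ligands) of tested members called. The share of all genes tested was 15.2%. Where all calls of a list had 1 direction, median centring and quantile normalization of the arrays left no call in the other direction, except that 1 of the 10 pituitary transcription factors was called positive under median centring. Under median centring 1 of the 15 cholesterol and fatty acid synthesis genes was also called, and the negative call of Ldha was lost.

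The COP arrays, which took no part in choosing the genes, gave the response of another strain to set beside these. The paper spells out ACI as August x Copenhagen, Irish, so COP was not taken as unrelated to ACI. COP had 3 control and 4 DES arrays, and its change with DES lay between those of ACI and BN for 1551 of the 1739 genes (89.2%). It was nearer to the ACI change for 1258 (72.3%) and nearer to the BN change for 481. Over all 11465 genes tested the shares were 51.6% and 60.7%, and over the 9726 not called 44.8% and 58.6%. The 1739 genes were chosen for a wide gap between ACI and BN, which makes a value in between more likely, and nothing is read from these shares. Among the 809 genes with a positive response difference ACI had a median change of 1.30, COP of 0.94 and BN of 0.22. Among the 930 with a negative one the medians were -1.28 for ACI, -0.91 for COP and -0.26 for BN. Of the 70 opposite responders, COP had the sign of ACI in 56 and that of BN in 14. Over all 11465 genes tested these counts were 10022 and 9032, where COP can share the sign of both strains. Olfm3 fell in COP as in ACI (-2.10) and Mki67 rose (1.66), whereas Slc40a1 had the sign of BN (-0.69). Vcan and Calb1 were at 0.43 and 0.29 in COP, between the other strains. These counts are descriptions, and differences of COP from either strain were not tested here.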

How the data were processed

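Anterior pituitary RNA of individual male rats was hybridized to 1-colour Affymetrix Rat Genome 230 2.0 arrays. The values the authors deposited are probe set signals, an intensity on a linear scale, and the software that summarized the probes is not given in the sources used here, nor its settings. The file held 31099 probe sets, 57 of them control probe sets that were left out. The 14 ACI and BN arrays had median signals of 118.8 to 151.45, and since array medians differed by at most 0.313 on the log2 scale no further scaling was applied. The number of arrays limits the precision. Identical values made up at most 0.238% of any 2 arrays.

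Signals were transformed to log2(signal + 16), so changes of dim genes are understated. Testing was limited to the 21062 probe sets brighter than the 40th percentile of the array on 3 or more of the 14 arrays. Group means were fitted with limma 3.58.1 in R 4.3.3 (lmFit, contrasts.fit and eBayes with a variance trend, 15.9 total degrees of freedom), two-sided, with Benjamini-Hochberg adjustment over all probe sets tested and calls at an adjusted p under 0.05. Of the 31042 probe sets kept, 20826 had 1 gene symbol, 436 several and 9780 none. A gene was represented by its single-symbol probe set of highest mean signal. The fit was tested on simulated data. Tables and plots were made with Python 3.11.15, pandas 2.3.3, numpy 2.4.6 and matplotlib 3.10.9.

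The genes described by rule had the 8 most positive and 8 most negative response differences, or were the 6 opposite responders of each orientation with the largest smaller change, all with a mean of at least 200 in some group. Added to these were a set of hormone, receptor and Ept7 genes and up to 4 called members of each of 32 gene lists with the smallest adjusted p. Other genes were named after their values were seen. The comparison, the lists and these rules were chosen with earlier results of these data known. Of 476 list entries 427 matched a gene on the array and 393 were tested. Alternatives were other filters, pseudocounts, scalings, blocks and array subsets. The COP arrays entered only the description at the end and 1 alternative.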

Additional observations from a re-analysis of the deposited data

Results flagged for a closer look

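The response to DES differed between ACI and BN in 1739 genes by the limma test of the difference itself. Among the genes described above, the response difference was positive for Nppc (4.11), C2cd4a (4.03), C2cd4b (3.33), Dnase1l3 (3.33), Mki67 (3.26), Spink4 (3.11), Hapln4 (3.11), Rarres1 (3.09), Slc40a1 (3.05), Mx1 (3.04), Irf7 (2.49), Apobec1 (2.47) and Ackr3 (2.19). It was negative for Olfm3 (-4.34), 6330403K07Rikl (-4.12), Defb24 (-3.58), Cartpt (-3.52), Calcb (-3.47), Lum (-3.34), Vcan (-3.15), Scn7a (-3.13), Calb1 (-2.94), Lhb (-2.47), Sostdc1 (-2.35), Kcnab1 (-2.28), Tshb (-2.26), Cyp26b1 (-1.97) and Fshb (-1.01).

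Single arrays stood far from the other 3 of their group in 5 of 210 groups of 4 looked at, where chance gives about 1 in 20. With DES in BN, Tbx19 was 519.7 on array 1 against 336 to 357.8, Lox was 379.3 on array 3 against 240.3 to 248.5, and Mcm2 was 513 on array 2 against 390.6 to 408.5. With DES in ACI, array 4 was lowest for Odc1, at 8300 against 8760 to 8776, and for Tgfb3, at 522.1 against 626.3 to 647.1. The response differences of these 5 genes were called in every analysis that left out 1 array. Those of Mcm2 and Tgfb3 were not called with numbers 3 and 4 alone.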

How the results depend on the processing

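Of 98 called genes described by rule, 68 were called under all 26 alternatives that tested them, and the calls lost most often were those of Angpt1, Chga, Emcn and Chrd. Leaving out 1 array gave 1762 to 2826 probe sets with a different response (2569 with all arrays), 767 to 1254 more positive in ACI, 995 to 1572 more positive in BN, 8920 to 10828 changed in ACI, 5007 to 7103 changed in BN and 39 to 88 opposite responders (70 with all arrays). Of the 1739 genes, 1201 (69.1%) were called without BN control array 1, the lowest such share. With the number set as a block, 3955 probe sets differed, 1739 more positive in ACI and 2216 in BN, with 128 opposite responders. Numbers 1 and 2 alone gave 3934, of which 2324 were more positive in BN, with 123 opposite responders, and numbers 3 and 4 alone gave 3115, with 219. The sign was kept by 1695 and 1684 of the 1739 genes in these subsets, and 1402 and 976 were called. Median centring gave 1594 probe sets more positive in ACI and 948 in BN, and quantile normalization 1193 and 1291. Of 7 described genes not called with all arrays, Gh1 was called under 8 alternatives, Cga under 5, Myc under 2 and Prl under 1, all negative. The response difference of Esr1, not called with all arrays, turned to 0.32 with numbers 1 and 2 alone and 0.36 without BN control array 3, within -1.05 to 0.36 over the analyses that left out 1 array. Arrays with the same replicate number deviated together no more than arrays of the same set with another number (median r 0.15 for both, with 13 of 19 same-number pairs over 0.1), so the numbers were not taken as pairs. A replicate block gave 3524 probe sets, 1536 more positive in ACI and 1988 in BN, 103 opposite responders, and 10948 and 7165 changed in ACI and BN. The causes of these changes were not tested. Genes near the background signal had changes of uncertain size.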
